A study of Mus musculus with 4 samples.

Results

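The genes described here encode enzymes that carry glucose carbon from hexokinase to pyruvate and lactate, into the mitochondrion, and round the citric acid cycle. They number 43 of the 43280 genes in the authors' deposited table, and each was found by its symbol: 17 act in glycolysis (11 up to the triose phosphates and 6 below them), 2 are lactate dehydrogenase subunits, 11 act on pyruvate at its entry into the mitochondrion, and 13 act in the citric acid cycle. The values come from mRNA sequencing of dissected retina of wildtype mice of a strain the labels write as C6/BL6J. Streptozotocin, which kills pancreatic beta cells and so makes animals diabetic, was injected into the peritoneum of the STZ mice at 50 mg/kg on 5 successive days from 6 weeks of age, and blood glucose above 25 mM was checked 10 days later. Controls were given citrate buffer alone, and all retinas were collected when the mice were 18 weeks old, per the labels. The column names appear to give a number of weeks shorter than the span between those ages. This difference was not resolved here. Each group has 2 libraries, called 2L and 4R after the ends of their column names. The labels call the samples of each group 2L and 4L, so only the 2L columns match a sample, and the 4R columns, which conflict with the labels, are used by their group name alone. Whether libraries came from separate animals is not stated, so p-values here speak for the variation among these 4 libraries, part or all of which may be technical.

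As background, retinal photoreceptors convert much of their glucose to lactate even when oxygen is present, the pattern known as aerobic glycolysis. Hexokinase, phosphofructokinase and pyruvate kinase are the steps that set the flow through glycolysis. Pyruvate then either becomes lactate or passes through the mitochondrial pyruvate carrier to the pyruvate dehydrogenase complex, which the pyruvate dehydrogenase kinases switch off. Most steps are served by more than one isoform, and the isoforms differ between cell types.

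Reads in genes numbered 29352330 (2L) and 31973786 (4R) among controls, and 33166680 (2L) and 39299653 (4R) among STZ libraries. The 14 rod genes used to check the tissue label took between 8.94% and 12.2% of those reads, all of them detected. A library of each group stood apart. Lens genes, 24 in number, made up 9.55% of STZ 2L and at most 0.0248% in any other library. The 16 genes of cornea and conjunctiva made up 0.0401% and 0.0381% of the STZ libraries (2L, 4R) and 0.00658% and 0.00345% of the controls. From here on, pairs of values are given as 2L then 4R. Control 2L was the lowest library for 14 of 17 genes of the pigment epithelium list. Without Rlbp1 and Trpm1, which retinal cells also make, that list summed to normalized counts of 2790 and 10844 in the controls and 12018 and 7670 in STZ (2L, 4R). Red blood cell genes were highest in control 2L for 5 of 6, summing to 5503 there and to at most 2971 elsewhere. The log2 fold change was negative for 9 of 9 cone genes and 12 of 14 rod genes, and positive for 7 of 12 genes of Müller glia. Cone genes summed to 45737 and 46084 normalized counts in the controls and 34830 and 37684 in STZ, with both STZ libraries lower. The part of these markers in the results below was not tested unless a value without a library, or without those genes, is given. In bulk tissue, fewer cells of a type and less RNA per cell cannot be told apart.

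The mRNAs of these enzymes differed little between the groups. Of the 43, 38 ranged by less than 1.5-fold over all 4 libraries, with a median ratio of the highest to the lowest library of 1.23. That range was not taken over all genes. The median absolute log2 fold change was 0.11 over the members and 0.16 over all genes tested. It was 0.098 over tested genes with a mean of at least 1000 normalized counts, so genes of high level differed as little. In limma, fitted over 18127 genes on log2(normalized count + 1), 0 of the 43 passed an adjusted p of 0.05 (0% of all genes tested passed) and 0 had an unadjusted p under 0.05 (2.76% of all genes, 2.31% higher and 0.447% lower in STZ). On reads recovered from the normalized counts, edgeR's quasi-likelihood test passed 0 members (0% of all genes tested), as did DESeq2 (0.281%). The unadjusted p was under 0.05 for 0 members in edgeR (3.27% of all genes), 0 in limma-voom (2.14%), 0 in limma with the tags as a block (3.48%) and 1, Suclg2, in DESeq2 (3.14%). In the authors' deposited table, 0 of the 43 passed at 0.05, where 0.281% of the 18478 genes with an adjusted p did. DESeq2 on recovered reads passed the same share, so these are not separate lines of support.

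How large a difference these libraries leave room for is given by the 95% intervals. For 26 of the 43 genes limma's interval of the fold change lay within 1.5-fold in both directions, against 33.2% of all genes tested and 72.4% of those with a mean of at least 1000 normalized counts. It did so for 8 of the 17 glycolytic genes, of which 1 was among the 6 of lower glycolysis. The count was 0 of 2 for lactate dehydrogenase, 8 of 11 for pyruvate entry and 10 of 13 for the citric acid cycle. For 40 genes it lay within a log2 fold change of 1 in both directions. The 3 others were Suclg2, Idh2 and Pdk4. The median log2 fold change, STZ over control, was -0.076 over the members and -0.0057 over all genes tested. It was negative for 30 members (69.8%), against 51.1% of all genes tested, and for 14 of the 17 glycolytic genes. Among tested genes with a mean of at least 1000 normalized counts it was negative for 56.3%, with a median of -0.023. The 38 members in that class stood at 71.1% and -0.081. Negative members numbered 24 without STZ 2L, 24 without control 4R, and 26 after lens and cornea genes were taken out. The members' median was -0.036 without STZ 2L, -0.0090 without control 4R, and -0.045 after lens and cornea genes were taken out and the libraries rescaled.

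**Figure D1:**
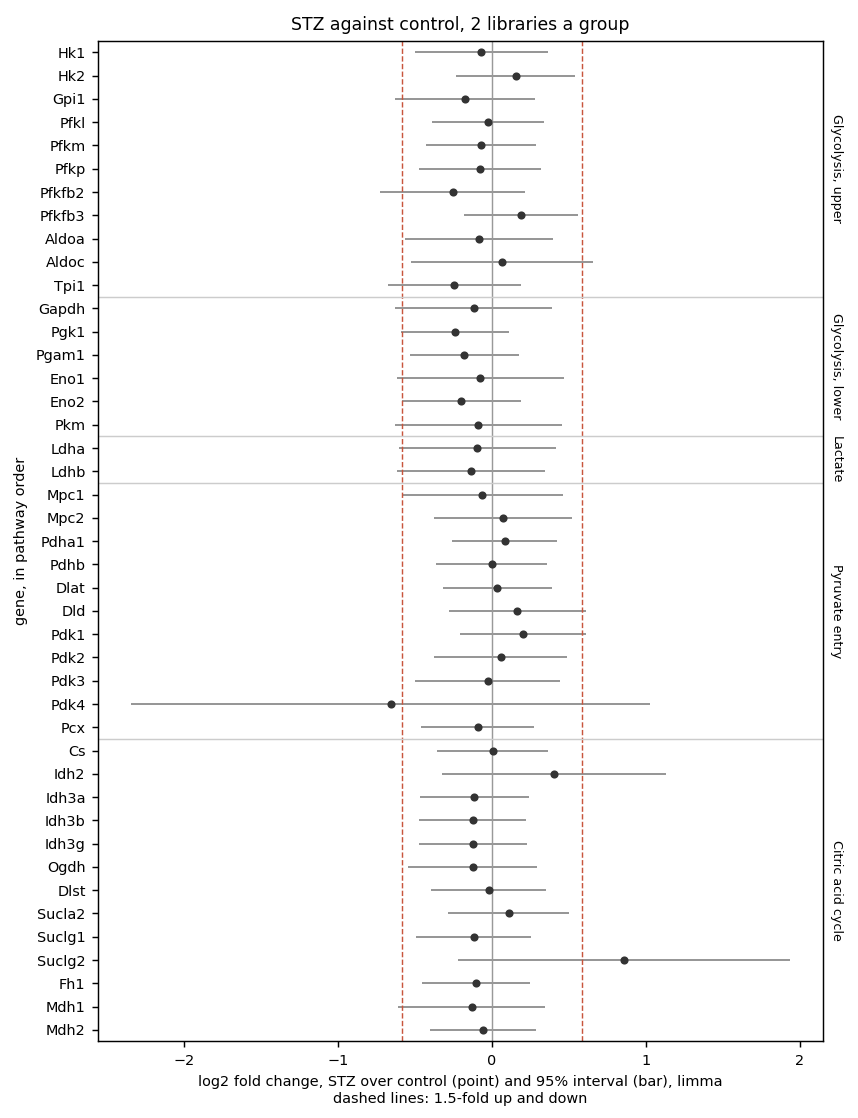
Log2 fold change of each member, STZ over control, on the log2(normalized count + 1) scale (points) with its 95% interval from limma (bars), in pathway order and with 2 libraries a group; dashed lines mark 1.5-fold up and down. All 43 intervals include 0, and those of Suclg2, Idh2 and Pdk4 reach past a log2 fold change of 1.

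As shares of reads, the 17 glycolytic mRNAs took 1.84% (95% Clopper-Pearson interval from 1.83 to 1.84, which covers the error of counting alone) and 1.93% (1.93 to 1.94) in the controls. Their share was 1.63% (1.62 to 1.63) and 1.80% (1.80 to 1.81) in the STZ libraries. Both STZ libraries lay below both controls. With lens reads left out of the total, the STZ libraries stood at 1.80% (1.80 to 1.80) and 1.80% (1.80 to 1.81), against 1.84% and 1.93% in the controls. The gap between the controls was then wider than that from control 2L to either STZ library. All 43 genes together took 2.22% and 2.33% of reads in the controls and 1.98% and 2.17% in STZ 2L and 4R. With lens reads left out of the total, these shares were 2.22% and 2.33% in the controls and 2.19% and 2.17% in STZ.

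Per kilobase of the principal transcript in GENCODE M21, Gapdh, Pkm and Aldoa were the most abundant of the 43. Gapdh, the enzyme that oxidises glyceraldehyde phosphate, averaged 63990 ± 5264 normalized counts per kb (SD over the 4 libraries). Pkm, the pyruvate kinase outside liver and red cells, averaged 53415 ± 2688 and Aldoa, the main aldolase of muscle and many other tissues, 53117 ± 1935, so these did not differ beyond their spread. Eno1 followed at 36854 ± 5085 and Ldha at 24229 ± 3605 per kb. Among mitochondrial enzymes the malate dehydrogenase Mdh2 was highest, at 5016 ± 213 per kb, while its cytosolic partner Mdh1 stood at 6378 ± 1077. The regulators lay near the bottom of the order, with Pfkfb3 at 304 ± 25.6, Pdk1 at 228 ± 27.9 and Pdk4 at 3.33 ± 1.23 normalized counts per kb. Divided by all annotated exonic bases instead, Aldoa came first, then Pkm and Gapdh.

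**Figure D2:**
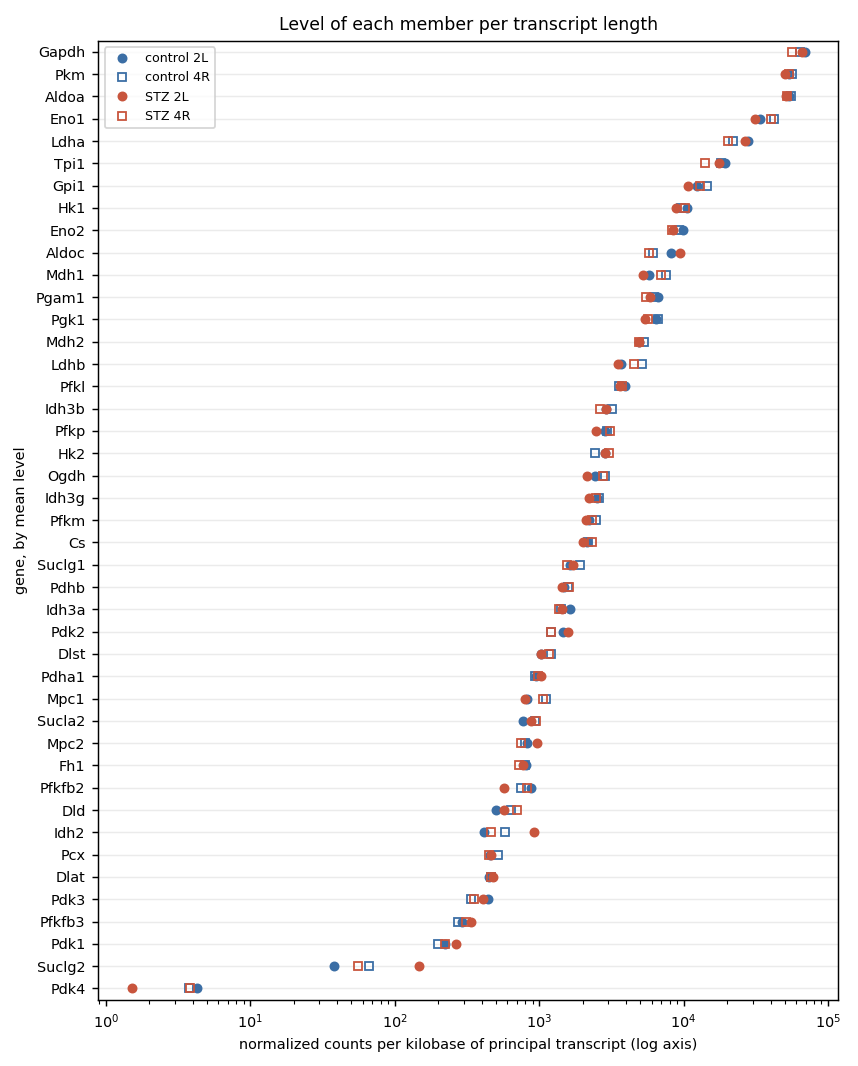
Normalized counts per kilobase of principal transcript (log axis) of the 43 genes in each of the 4 libraries, ordered by mean. Levels span from 3.33 per kb for Pdk4 to 63990 for Gapdh, and the 4 libraries of most genes lie close together on this scale.

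Some of these levels are uncertain because near-identical copies also collected reads. A blastn search of each member's longest coding transcript, at 95% identity or more over at least 200 bases, found copies at other loci for 12 members, of which 9 have copies in the table. For Gapdh there were 78, of which 72 are in the table, and they summed to between 62.3% and 79.8% of Gapdh's own normalized count. For Pgk1, 2 copies in the table summed to between 46.5% and 57.8%, for Mpc1 1 copy reached 44.1%, for Pgam1 1 copy 32.1% and for Eno1 2 copies 25.4% at most. Reads of a gene and its copies cannot be told apart here, so each was also summed. With its copies, Gapdh read 158838 and 163606 in controls 2L and 4R, and 154944 and 144651 in STZ 2L and 4R, a log2 fold change of -0.11 in place of -0.12. Both STZ libraries then lay below both controls, which was not so for Gapdh alone. The largest shift from adding copies was that of Mpc1, from -0.061 to -0.12.

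Entry into glycolysis is through hexokinase, which phosphorylates glucose. Hk1 (chromosome 10), the broadly expressed isoform of brain and retina, read 40325 and 36667 normalized counts in control 2L and 4R, and 34236 and 39287 in STZ 2L and 4R. Hk2 (chromosome 6, 82725025 to 82774454, mm10), the isoform that photoreceptors carry, read 15785 and 13399 in the controls and 15620 and 16793 in STZ. For each gene the groups overlapped. The log2 fold changes were -0.07 ± 0.19 (SE) for Hk1 and 0.16 ± 0.17 for Hk2 (limma, adjusted p = 0.999 for each). Within each library, Hk1 was 2.55 and 2.74 times Hk2 in the controls and 2.19 and 2.34 times in STZ, so the Hk1 to Hk2 ratio was lower in both STZ libraries. The difference in log2 ratio was -0.22 (exact permutation test, two-sided, p = 0.333, the smallest that 2 against 2 libraries can give). Per kb of principal transcript Hk1 was 3.52 times Hk2.

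Gpi1, which converts glucose phosphate to fructose phosphate, read 35856 and 41593 in the controls and 31048 and 37678 in STZ, with a log2 fold change of -0.18 ± 0.20. Phosphofructokinase has a liver (Pfkl), a muscle (Pfkm) and a platelet (Pfkp) subunit. Pfkl read 14719 and 13405 in the controls and 13632 and 14008 in STZ. Pfkm read 6351 and 7081, then 6111 and 6681, and Pfkp 11884 and 12232, then 10201 and 12800, in the same order of libraries. All 3 subunits overlapped between the groups, with log2 fold changes between -0.08 and -0.02, and all intervals lay within 1.5-fold. Per kb of principal transcript the subunits were at like levels, with Pfkl 1.65 times and Pfkp 1.25 times Pfkm. Divided by all exonic bases, Pfkp instead was 0.448 times Pfkm, so its place depends on the length used.

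Pfkfb2 and Pfkfb3 make and remove the fructose bisphosphate that switches phosphofructokinase on, Pfkfb3 being the isoform known for favouring glycolysis. Pfkfb3 (chromosome 2, 11471433 to 11554077) read 1359 and 1278 in the controls and 1553 and 1452 in STZ, so both STZ libraries lay above both controls, at a log2 fold change of 0.19 ± 0.16 (limma, adjusted p = 0.999). Pfkfb2 read 3896 and 3319 in the controls and 2507 and 3626 in STZ. Its lowest value was that of STZ 2L, where lens reads are many, and its log2 fold change moved from -0.25 ± 0.20 to 0.012 without that library. The Pfkfb2 to Pfkfb3 ratio was 2.87 and 2.60 in the controls and 1.61 and 2.50 in STZ, a difference in log2 ratio of -0.44 (exact permutation p = 0.333). Without STZ 2L that difference was -0.13.

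Aldolase splits the bisphosphate sugar. Aldoa read 81498 and 83730 in the controls and 77203 and 78608 in STZ, with both STZ libraries below both controls and a log2 fold change of -0.08 ± 0.21. Aldoc, the aldolase of brain and of Müller glia, read 22656 and 16973 in the controls and 26167 and 16162 in STZ. The tags, not the groups, were apart for Aldoc: both 2L libraries lay above both 4R libraries. Its log2 fold change of 0.07 ± 0.26 moved between -0.28 and 0.42 as single libraries were left out, and was -0.28 without STZ 2L. The Aldoa to Aldoc ratio was 3.60 and 4.93 in the controls and 2.95 and 4.86 in STZ.

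Both STZ libraries lay below both controls for 7 of the 43 members (16.3%, against 14.3% of all genes tested), and above them for 2, Pfkfb3 and Pdha1 (4.65%, against 14.3%); groups did not overlap for 28.7% of all genes. Of the 7, 5 are glycolytic enzymes: Aldoa, Tpi1, Pgk1, Pgam1 and Eno2. The others are the citric acid cycle genes Idh3g and Fh1. The share lower in STZ is near that of all genes, so the count is not a result about these enzymes. Gapdh would join the 7 with its copies added.

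Tpi1 (chromosome 6, 124810586 to 124814296), which interconverts the triose phosphates, read 31077 and 28956 in the controls and 28397 and 22609 in STZ. The lowest value, that of STZ 4R, lay well below the other STZ library, and the log2 fold change was -0.24 ± 0.19. Pgk1 (chromosome X), which makes ATP from bisphosphoglycerate, read 11751 and 12047 in the controls and 9808 and 10389 in STZ, so the gap between groups exceeded that within either. Its log2 fold change was -0.24 ± 0.15 (limma, unadjusted p = 0.158, adjusted p = 0.999), and -0.23 with its copies added. Pgam1 (chromosome 19), the phosphoglycerate mutase, read 11745 and 11057 in the controls and 10405 and 9738 in STZ, at -0.18 ± 0.15, and -0.21 with its copy added. Eno2 (chromosome 6, 124760053 to 124769673), the neuronal enolase, read 27751 and 25791 in the controls and 23424 and 23177 in STZ, at -0.20 ± 0.17. For Pgk1 and Eno2 the STZ libraries lay closer to each other than to the nearer control, for Tpi1 and Pgam1 they did not, and none of these genes passed.

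Promoters are shown for Pgk1, Pgam1 and Eno2, 3 of the 4 genes with the smallest p among the 7. They were picked because both STZ libraries lay below both controls for each, and because glycolytic genes are known targets of the hypoxia-inducible factors. Tpi1, the other of those 4, met the same criterion but is not shown. Each sequence is the 250 bases before the RefSeq start (GRCm38.p6, which is mm10), 5′ to 3′ on the gene's strand. Capitals mark ACGTG, the core letters of the hypoxia response element, or its reverse complement CACGT; a match may also lie inside the E-box CACGTG.

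Pgk1, chrX:106186850-106187099, plus strand: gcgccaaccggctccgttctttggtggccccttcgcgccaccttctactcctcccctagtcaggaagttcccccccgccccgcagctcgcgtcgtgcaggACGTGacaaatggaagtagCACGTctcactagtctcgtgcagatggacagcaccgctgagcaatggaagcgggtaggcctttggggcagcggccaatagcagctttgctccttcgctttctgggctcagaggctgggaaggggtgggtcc

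Pgam1, chr19:41911621-41911870, plus strand: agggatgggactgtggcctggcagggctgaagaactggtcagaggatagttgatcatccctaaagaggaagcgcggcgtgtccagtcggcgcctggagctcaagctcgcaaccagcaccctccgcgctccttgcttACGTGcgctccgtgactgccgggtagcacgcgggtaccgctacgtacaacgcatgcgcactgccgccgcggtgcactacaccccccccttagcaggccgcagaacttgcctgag

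Eno2, chr6:124769674-124769923, minus strand: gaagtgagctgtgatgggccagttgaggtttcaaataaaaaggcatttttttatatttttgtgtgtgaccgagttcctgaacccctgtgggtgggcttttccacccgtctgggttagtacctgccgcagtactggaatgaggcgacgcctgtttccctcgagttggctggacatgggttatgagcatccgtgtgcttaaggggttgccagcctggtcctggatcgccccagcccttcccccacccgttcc

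In these windows Pgk1 holds ACGTG starting 150 bases before the start and CACGT 131 bases before it. Pgam1 holds ACGTG 114 bases before its start. Eno2 holds neither, which says only that these letters are not in that window. The 1 window of Tpi1, not shown, also holds neither. Of the 42 members matched in the promoter table, 16 had the motif in at least 1 of their windows, as did 18.5% of all genes in that table. Per window it was 38.5% of 65 member windows against 16.6% of all 32851, and some members have several overlapping windows. Member windows are also richer in CG, with a median of 15 CG against 6 in all windows. Among windows with at least 10 CG the shares were 43.5% of 46 and 24.4% of 12417. The motif was present in members with log2 fold changes of either sign, positive for Pfkfb3 and Hk2 and negative for Pgk1 and Pgam1. The groups of Hk2 overlapped.

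Of the remaining enzymes of lower glycolysis, Gapdh (chromosome 6) read 97893 and 91099 in the controls and 94010 and 80461 in STZ, a log2 fold change of -0.12 ± 0.22. Pkm (chromosome 9) read 129970 and 137677 in the controls and 121683 and 130293 in STZ, at -0.09 ± 0.24. Eno1 (chromosome 4, 150236721 to 150248879), the broadly expressed enolase, read 68213 and 85006 in the controls and 63763 and 81833 in STZ, at -0.08 ± 0.24. All 3 overlapped between groups, and Eno1 followed the tag: both 2L libraries lay well under both 4R libraries. The Eno1 to Eno2 ratio was 2.46 and 3.30 in the controls and 2.72 and 3.53 in STZ, and the groups overlapped. All 6 genes of lower glycolysis had a negative log2 fold change, with a median of -0.15. It was negative for 51.1% of all genes tested and 56.3% of those with a mean of at least 1000 normalized counts. Among the 11 genes of pyruvate entry it was negative for 5, with a median of 0.035. That of Eno1 was 0.10 without STZ 2L and 0.083 without control 4R.

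**Figure D3:**
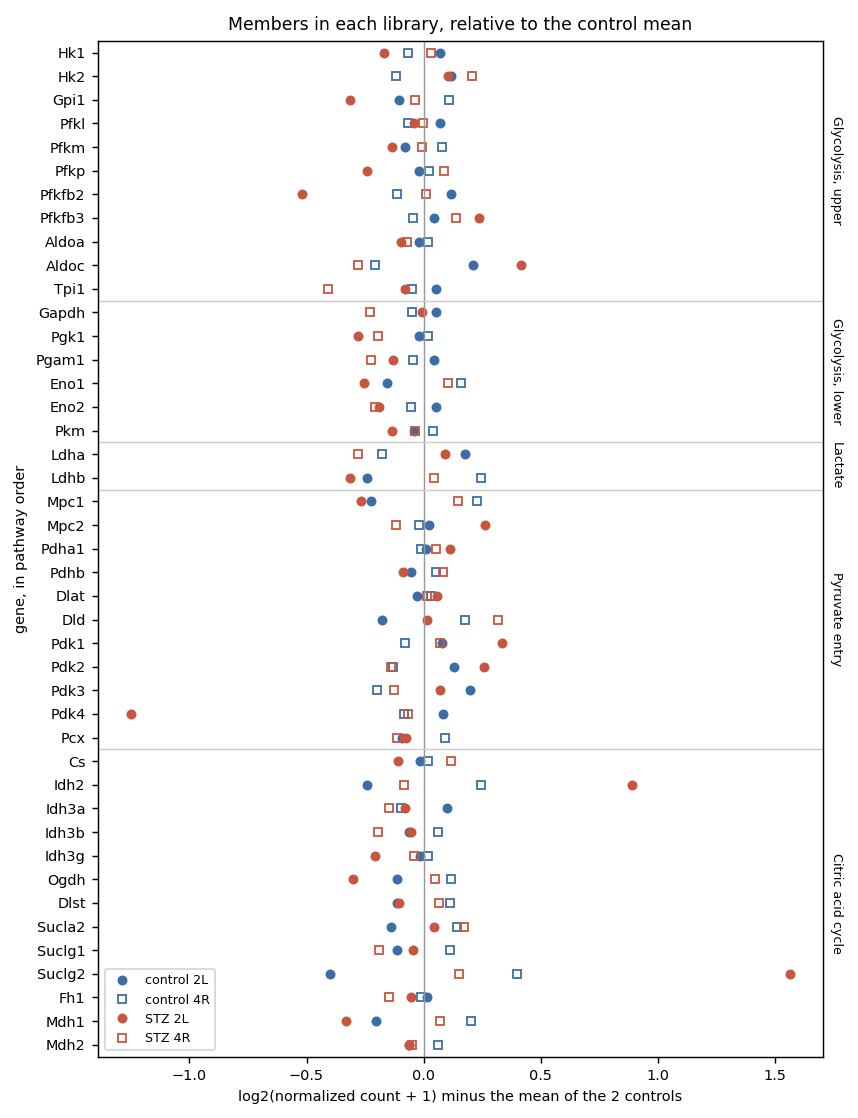
Each member's log2(normalized count + 1) in each library minus the mean of the 2 controls, in pathway order; blue is control, red is STZ, filled circles are libraries tagged 2L and open squares those tagged 4R. Most points lie within 0.5 of 0, STZ 2L stands apart for Suclg2, Idh2 and Pdk4, and for Aldoc, Eno1, Ldha, Ldhb and Mdh1 the tags separate more than the groups do.

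Lactate dehydrogenase is built from Ldha subunits, which favour making lactate, and Ldhb subunits, which favour using it. Ldha (chromosome 7) read 49546 and 38778 in the controls and 46709 and 36120 in STZ. Ldhb (chromosome 6) read 4805 and 6734 in the controls and 4572 and 5869 in STZ. The groups overlapped for each gene, at log2 fold changes of -0.09 ± 0.22 and -0.13 ± 0.21. The Ldha to Ldhb ratio was 10.31 in control 2L and 10.22 in STZ 2L, and 5.76 in control 4R and 6.15 in STZ 4R. Libraries of the same tag were thus nearly alike in this ratio whatever the treatment, and the difference in log2 ratio between STZ and control was 0.041, with an SD of 0.59 among controls and 0.52 among STZ libraries (n = 2 each). Per kb of principal transcript Ldha averaged 5.99 times Ldhb.

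This separation by tag was wider than Ldha and Ldhb. For 23 of the 43 members both 2L libraries lay on one side of both 4R libraries, as they did for 42.8% of all genes tested, while the groups did not overlap for 9. What the tags stand for is not stated. Across all tested genes the deviations of libraries with the same tag had a correlation of 0.099, and across the 43 members of -0.054. Both are across genes of the same libraries and carry no test. The members' value includes Suclg2, Idh2 and Pdk4, whose 2L minus 4R log2 differences had opposite signs in controls and STZ. These were -0.80 and 1.41 for Suclg2, -0.49 and 0.97 for Idh2, and 0.17 and -1.18 for Pdk4. For the 23 members split by tag the signs are alike by the definition of the split, so this is not a result. A correlation gives wide differences much weight, so it need not describe the other members. Within each tag taken alone, STZ was lower than its control for 10 of the 17 glycolytic genes in both tags and for both lactate dehydrogenase genes. It was lower in both tags for 1 of 11 genes of pyruvate entry and 6 of 13 of the citric acid cycle. Over all 43 members it was lower in both tags for 19 (44.2%, against 26.1% of all genes tested) and higher in both for 5 (11.6%, against 24%). These counts were not retaken without lens and cornea genes, whose removal shifted the median log2 fold change of all genes by 0.031. Nor were they set against genes of high level alone.

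**Figure D4:**
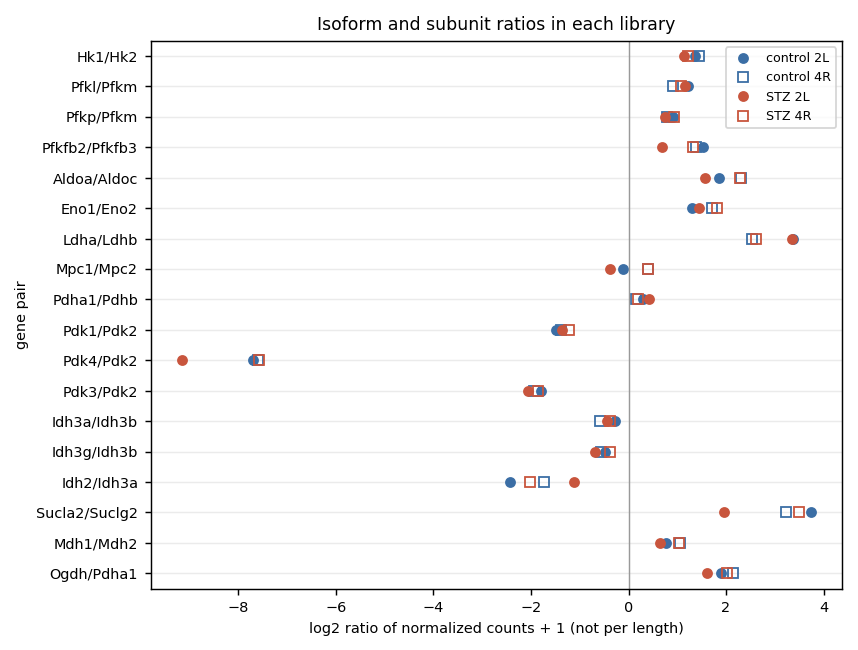
Log2 ratio of the normalized counts + 1 of 18 gene pairs in each library, not corrected for transcript length; colours and symbols give the group and tag. The groups did not overlap for 3 pairs, Hk1/Hk2, Pfkfb2/Pfkfb3 and Pdk1/Pdk2, while Ldha/Ldhb and Mpc1/Mpc2 fall by tag. Among single genes, groups did not overlap for 28.7% of all tested.

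Over the 18 pairs of isoforms or subunits compared, the groups did not overlap for 3. These were Hk1/Hk2 and Pfkfb2/Pfkfb3, lower in STZ, and Pdk1/Pdk2, higher in STZ. Among single genes, groups did not overlap for 28.7% of all tested, so this count is not a result about these pairs. No pair had an exact permutation p under 0.333, the smallest the design allows, and the p adjusted over the 18 pairs was 1 for each. Differences in log2 ratio ran from -0.75 for Sucla2/Suclg2 to 0.52 for Idh2/Idh3a, and both of those rested on STZ 2L: without it they were 0.022 and 0.066.

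Pyruvate enters the mitochondrion through a carrier made of Mpc1 and Mpc2. Mpc1 read 785 and 1073 in the controls and 762 and 1016 in STZ, and Mpc2 844 and 819 in the controls and 997 and 765 in STZ. Each overlapped between groups, at log2 fold changes of -0.061 ± 0.23 and 0.071 ± 0.20. The pyruvate dehydrogenase complex turns pyruvate into acetyl-CoA. Its E1 subunit gene Pdha1 (chromosome X) read 2723 and 2683 in the controls and 2925 and 2805 in STZ, with both STZ libraries above both controls, at 0.08 ± 0.15. The partner subunit gene Pdhb read 2230 and 2404, then 2181 and 2450, at -0.0025 ± 0.16. The acetyltransferase gene Dlat varied least of all 43, by 1.06-fold over the 4 libraries, from 1807 to 1919 normalized counts. The lipoamide dehydrogenase gene Dld, shared with the oxoglutarate complex, read between 1269 and 1790 and stood at 0.17 ± 0.19. Pcx, the pyruvate carboxylase that refills the cycle, read between 1819 and 2095, at -0.09 ± 0.16.

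The pyruvate dehydrogenase kinases inactivate that complex, and Pdk4 is known in liver, muscle and heart as the isoform induced by fasting and diabetes. In these retinas Pdk4 (chromosome 6) was scarcely detected, at 14.8 and 13.1 normalized counts in the controls and 5.28 and 13.2 in STZ. Its low value came from STZ 2L, and its log2 fold change of -0.66 ± 0.73 has an interval from -2.34 to 1.03, which is the widest of the 43. Pdk2 was the most abundant of the 4, at 3260 and 2720 in the controls and 3556 and 2702 in STZ, and its 2L libraries lay above its 4R libraries. Pdk1, a known target of hypoxia-inducible factors, read 1160 and 1039 in the controls and 1384 and 1151 in STZ, so that STZ 4R lay between the controls, and the log2 fold change was 0.20 ± 0.18 (limma, adjusted p = 0.999). Pdk3 read 938 and 712 in the controls and 858 and 749 in STZ. Relative to Pdk2, Pdk1 was at 0.356 and 0.382 in the controls and 0.389 and 0.426 in STZ, a difference in log2 ratio of 0.14 (exact permutation p = 0.333). Per kb, Pdk1 was 0.168 times, Pdk3 0.284 times and Pdk4 0.0025 times Pdk2.

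In the citric acid cycle, the first enzyme, citrate synthase, differed least but for Pdhb: Cs read 6230 and 6381 in the controls and 5850 and 6843 in STZ, a log2 fold change of 0.0050 with an interval from -0.35 to 0.36. The NAD-dependent isocitrate dehydrogenase genes lay close together in their differences. Idh3a read 3910 and 3412, then 3460 and 3294. Idh3b read 4707 and 5121, then 4723 and 4286. Idh3g read 3362 and 3443, then 2948 and 3305, and was the one whose groups did not overlap. Their log2 fold changes were -0.11 ± 0.15, -0.13 ± 0.15 and -0.12 ± 0.15. The oxoglutarate dehydrogenase Ogdh, known to limit flux through the cycle, read between 8894 and 11864 at -0.12 ± 0.18, and Dlst, the succinyltransferase of the same complex, between 2852 and 3332 at -0.020 ± 0.16. Fumarase, encoded by Fh1 (chromosome 1), read 2132 and 2096 in the controls and 2037 and 1905 in STZ, at -0.10 ± 0.15.

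The malate dehydrogenases link the cytosol and the mitochondrion in the malate-aspartate shuttle. The cytosolic Mdh1 read 12173 and 16132 in the controls and 11139 and 14693 in STZ, following the tag, at -0.13 ± 0.21. The mitochondrial Mdh2 read 7137 and 7765 in the controls and 7118 and 7192 in STZ, at -0.057 ± 0.15. The groups overlapped for each.

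Suclg2 and Idh2 had the highest log2 fold changes of the 43. In each, STZ 2L was the highest library and control 2L the lowest. Without control 2L the log2 fold change was 0.46 for Suclg2 and 0.16 for Idh2. Suclg2 (chromosome 6, 95473009 to 95718800) encodes the GTP-forming subunit of succinyl-CoA ligase. It read 127 and 222 in the controls and 499 and 187 in the STZ pair, so STZ 4R lay between the controls. Its log2 fold change was 0.86 ± 0.47 (limma, unadjusted p = 0.105, adjusted p = 0.999). It was 0.15 without STZ 2L and 1.56 without STZ 4R, where it passed (limma, adjusted p = 0.000348). In that fit, with STZ 2L as the lone STZ library, 591 of 17816 genes passed (3.32%), so the call is not particular to this gene. In the authors' deposited table it stood at 0.97 ± 0.44 with an unadjusted p of 0.0269 and an adjusted p of 1.00. A near-identical copy of Suclg2 reached 19.7% of its value at most.

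Idh2 (chromosome 7, 80094846 to 80115392), the mitochondrial isocitrate dehydrogenase that makes NADPH, read 727 and 1019 in the controls, 1595 in STZ 2L and 812 in STZ 4R. Its log2 fold change of 0.40 ± 0.32 was -0.083 without STZ 2L and 0.89 without STZ 4R (limma, adjusted p = 0.00806), in the same fit in which 3.32% of all genes passed. STZ 2L is the library with 9.55% lens reads. Whether lens RNA, or any other property of that library, carries these reads was not tested beyond those values. Control 2L, the lowest library for Suclg2 and Idh2, was also the lowest for 14 of 17 pigment epithelium genes. The part of that low control in these fold changes was not tested. The ATP-forming partner Sucla2 read 1714 and 2085 in the controls and 1949 and 2130 in STZ, and the shared subunit gene Suclg1 2500 and 2920, then 2618 and 2369. Neither stood out in STZ 2L. The Sucla2 to Suclg2 ratio was 13.5 and 9.38 in the controls, 3.90 in STZ 2L and 11.4 in STZ 4R.

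**Figure D5:**
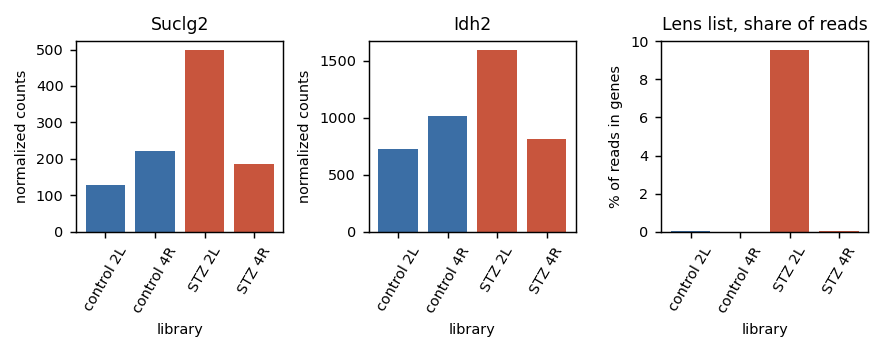
Normalized counts of Suclg2 and Idh2 and the share of reads in the 24 lens genes, in each library (bars; 1 library each, blue control, red STZ). STZ 2L is the highest in all 3 panels, at 499 and 1595 normalized counts and 9.55% of reads, and STZ 4R lies between the controls for Suclg2 and Idh2.

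Beyond the 43, a list of 52 other genes of the same pathways (minor isoforms, monocarboxylate transporters, phosphatases of pyruvate dehydrogenase, succinate dehydrogenase, malic enzymes and shuttle components) had 51 in the table and 42 tested. Of these, 0 passed in limma, 15 had a positive and 27 a negative log2 fold change, and the median was -0.024. The 4 with the smallest p were Gpd1, Eno4, Slc16a8 and Sdhc. Gpd1, a cytosolic glycerol phosphate dehydrogenase, read 87.6 and 76.4 in the controls, 644 in STZ 2L and 106 in STZ 4R, at 1.66 ± 0.70 with an unadjusted p of 0.0444 (limma, adjusted p = 0.999). It was thus another gene with its high value in STZ 2L. Slc16a8, a monocarboxylate transporter of pigment epithelium, read 96.7 and 190 in the controls and 244 and 195 in STZ, at 0.68 ± 0.37. Its low value was that of control 2L, as for 14 of the 17 pigment epithelium genes. The log2 fold change was positive for 15 of those 17, but against control 4R alone both STZ libraries were higher for 2 and both lower for 6. The part of that low control in the Slc16a8 value was not tested. Sdhc, a membrane subunit of succinate dehydrogenase, read 4157 and 4123 in the controls and 3655 and 3392 in STZ, at -0.23 ± 0.15, and Eno4 stood at -0.81 ± 0.40.

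The 7 genes of the pentose phosphate pathway, which branches off after hexokinase, were all tested, with 0 passing, 2 positive and 5 negative log2 fold changes and a median of -0.10. The 4 with the smallest p were the transaldolase Taldo1 at -0.18 ± 0.18, the transketolase Tkt at 0.15 ± 0.22, the glucose phosphate dehydrogenase G6pdx at -0.11 ± 0.15 and the phosphogluconate dehydrogenase Pgd at -0.10 ± 0.16 (limma, adjusted p = 0.999 for each). Tkt, which cornea also makes in abundance, read 14275 and 15374 in the controls, 20167 in STZ 2L and 13398 in STZ 4R, so again the single high value was that of STZ 2L.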

How the data were processed

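Retinal mRNA was made into Ion Torrent libraries and processed in Torrent Suite 5.4.0, per the labels' protocols. STAR placed reads on mm10 and Bowtie2 those it left, and gene expression came from HTSeq and Picard, per the labels. Which annotation, strand setting and comparison tool were used was not given in the sources used here. DESeq2 on the recovered reads passed as many genes as the deposited values, 52 of 18478. It also gave the same log2 fold change for Suclg2, 0.968. Without strand, reads in the bases that a member shares with a gene on the opposite strand (25 exonic bases for Aldoa and Fam57b) cannot be told apart. The authors deposited normalized counts, a signal per gene in which each library has been scaled by its own constant, and their mean. The authors' deposited table also holds log2 fold changes with standard errors, a test score, p-values and adjusted p-values. Columns tagged 2L matched a sample's labels, and those tagged 4R matched their group only, where the labels give 4L. All values (100% in each column, within 0.01 reads) were whole multiples of 1 step, from 0.827 to 1.14 normalized counts, which gave the reads.

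The test was limma 3.58.1 (R 4.3.3) on log2(value + 1) of genes reaching 10 in 2 libraries or more, with a mean-dependent prior and treatment as the only term, two-sided, Benjamini-Hochberg at 0.05 over 18127 genes. Fold changes on this scale understate low genes. The fit was checked on simulated data. EdgeR 4.0.16 and DESeq2 1.42.0 on recovered reads, limma-voom, a replicate block, each library left out, TMM and quantile scaling, other filters (none, 50) and pseudocounts (0.5, 5), robust moderation and removal of lens and cornea genes were alternatives. Lengths and loci came from GENCODE M21 (Aldoa has more than one entry there; that with most coding transcripts was used), promoters from RefSeq (GRCm38.p6), and copies from blastn 2.17.0. The members and lists were chosen with earlier results of these data known. Every member is named; isoforms of a shared step and the 10 members with the smallest p are given in every library, and the 4 genes with the smallest p of each other list are named. The promoters shown were picked after values were seen.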

Additional observations from a re-analysis of the deposited data

How the results depend on the processing

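Over 16 alternatives, 0 members passed an adjusted p of 0.05 in 15; the exception, without STZ 4R, passed 2 (Suclg2 and Idh2; 3.32% of all genes passed there), so the count ran from 0 to 2 as single libraries were left out. A lone library of a group is then assumed to vary like the other group. Members at an unadjusted p under 0.05 ran from 0 to 3 over those omissions and were 1 with DESeq2, Suclg2. The median log2 fold change of members ran from -0.098 to -0.0090 over the omissions and was -0.095 after quantile normalization. Quantile normalization shifted the median of all genes by -0.051, TMM by -0.0034 and removal of lens and cornea genes by 0.031. The replicate block by library tag gave 0 members and 0 genes past the threshold, with a smallest adjusted p of 0.986 (limma) among members and a median of -0.076. The labels give the 4R columns no replicate number, and what the tags stand for is not stated. The main fit therefore had no term for the tag. Deviations of same-tag libraries correlated at 0.099 (0.054 without lens and cornea genes). Yet both 2L libraries lay on one side of both 4R libraries for 42.8% of all genes tested, while groups did not overlap for 28.7%. Whether the tags pair the samples was not tested.

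The sign changed in at least 1 alternative for 22 of 43 members, Idh2 and Pfkfb2 included; the cause was not tested. With lens and cornea genes removed these were Pfkl (0.0076), Pdhb (0.029), Pdk3 (0.0032) and Dlst (0.012), and Pdhb also with edgeR (0.0083) and limma-voom (0.0076). Over the omissions of 1 library, log2 fold changes ran for Hk1 from -0.17 to 0.031, Pfkl from -0.091 to 0.044, Pfkm from -0.15 to 0.0086, Pfkp from -0.24 to 0.086, Pfkfb2 from -0.52 to 0.012, Aldoc from -0.28 to 0.42, Eno1 from -0.26 to 0.10, Ldha from -0.28 to 0.092, Ldhb from -0.38 to 0.11, Mpc1 from -0.29 to 0.16, Mpc2 from -0.12 to 0.26, Pdhb from -0.086 to 0.081, Dld from -0.013 to 0.34, Pdk2 from -0.14 to 0.26, Pdk3 from -0.23 to 0.17, Cs from -0.11 to 0.12, Idh2 from -0.083 to 0.89, Ogdh from -0.30 to 0.050, Dlst from -0.13 to 0.093, Sucla2 from -0.033 to 0.25, Mdh1 from -0.33 to 0.072 and Mdh2 from -0.12 to 0.0036.

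Pairs whose groups did not overlap numbered 3 with all libraries and from 8 to 14 with 1 left out, where fewer values must be apart. Differences in log2 ratio changed sign for Pfkl/Pfkm (-0.10 to 0.19), Pfkp/Pfkm (-0.11 to 0.092), Aldoa/Aldoc (-0.51 to 0.21), Eno1/Eno2 (-0.088 to 0.33), Ldha/Ldhb (-0.38 to 0.46), Mpc1/Mpc2 (-0.53 to 0.27), Pdha1/Pdhb (-0.027 to 0.20), Pdk3/Pdk2 (-0.19 to 0.015), Pdk4/Pdk2 (-1.50 to 0.074), Idh3a/Idh3b (-0.15 to 0.17), Idh3g/Idh3b (-0.15 to 0.15), Sucla2/Suclg2 (-1.52 to 0.022) and Mdh1/Mdh2 (-0.27 to 0.12).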
